A study of Caenorhabditis elegans with 4 samples.

Results

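The transthyretin-like (ttr) genes were examined in whole Caenorhabditis elegans given rifampicin (RIF), an antibiotic that blocks bacterial RNA polymerase, or its solvent DMSO. A gene was taken as a member when the symbol paired with its probe set began with ttr-, only probe sets that name a single gene were used, and a gene with several was taken by the probe set of the highest mean over the 4 arrays. This gave 40 ttr genes on 41 probe sets, out of 17118 genes on the array. The strain was N2, the wild type, taken on adult day 8, and 2 RIF arrays and 2 DMSO arrays are labelled as biological replicates. Both groups were kept in liquid culture with heat-killed E. coli OP50 that carries the L4440 vector. The cultures also held carbenicillin, amphotericin B and FuDr, and fresh food was given on day 5. No RIF dose is given in the labels of the arrays, and RNA was of whole worms in bulk. For the RIF arrays a tissue field of the labels names idr-1 RNAi, and for the DMSO arrays a control RNAi. The titles, the source names and the design text give DMSO and rifampicin, which set the groups here.

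Transthyretin-like proteins form a large family of mostly secreted proteins in nematodes. They are small, most carry a signal sequence for export, and they share sequence with vertebrate transthyretin, which carries thyroid hormone and, through retinol-binding protein, retinol in blood. What most of them bind is not known. The best understood member, TTR-52, is secreted in the worm, binds phosphatidylserine exposed on dying cells and bridges it to the engulfment receptor CED-1.

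Values are the authors' log2 probe set values. On these arrays, 8 probe sets against foreign transcripts, absent from the worm, read 0.44 to 1.62, and a gene whose RIF and DMSO means both lay within or below this foreign range has no measured change. Array medians were 1.90 and 1.85 with RIF and 1.82 and 1.82 with DMSO. As a sign of RNA degradation, the 5′ value minus the 3′ value was taken for 8 transcripts probed at both ends, where lower values go with shorter RNA, and its median was -1.28 and -1.25 with RIF and -0.99 and -2.16 with DMSO. DMSO replicate 2 was the lowest of the 4 arrays in this measure. A gene is said to have risen or fallen when limma gave an unadjusted p under 0.05 and the change was at least 2-fold, the threshold the study uses for its arrays. The methods' t-test, run as an alternative, is the unpaired t-test that the methods give for experiments other than survival. For the arrays they name GeneSpring GX with default settings. The groups are called apart when both RIF arrays lay above, or both below, both DMSO arrays.

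Of the 40 ttr genes, ttr-21 rose with RIF and ttr-24 and ttr-25 fell. Over all genes, 1.27% rose and 1.55% fell by the same rule (2.22% and 2.7% of genes above the foreign range). No ttr gene passed an adjusted p under 0.05 in limma, or in any alternative fit that was run (0.0234% of all genes did in limma), while 10 reached an unadjusted p under 0.05, 3 of them higher and 7 lower, against 8.85% of all genes and 14.6% of those above the foreign range. The family had no common direction. Its members split into 20 above and 20 below 0, with a median log2 difference of 0.01, beside 0.03 over all genes. In whole worms, fewer cells that make a transcript and less of it per cell cannot be told apart.

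Whatever their direction, the differences of the ttr genes were larger in the median than those of all genes. In 34 of the 40 at least 1 group mean lay above the foreign range, and 18 of these 34 (52.9%) differed by 1.5-fold or more, 8 higher and 10 lower, where 22.5% of all genes above that range (13% of all genes) did. The groups were apart in 22 of the 34 (64.7%), 10 higher and 12 lower, while 22.2% of all genes above the range were apart and higher and 21.6% apart and lower. The median size of the log2 difference was 0.61 in these members and 0.30 in all genes above the range. The gap between the arrays of 1 group was larger in these members too, with medians of 0.35 for RIF and 0.54 for DMSO, against 0.28 and 0.37 in all genes above the range. These members also read higher, with means of 6.08 and 5.72 with RIF and 5.86 and 6.05 with DMSO. The means of all genes above the range were 4.31 and 4.31 with RIF and 4.33 and 4.31 with DMSO. The genes were not matched for level, and the part of level in these contrasts was not tested. Over all 40, the groups were apart and higher in 11 and apart and lower in 12, against 22.9% and 16% of all genes. In 22 of the 40 a gap between replicate arrays exceeded the difference between the groups. The share of all genes with such a gap was not counted, so this cannot be called many or few.

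**Figure D1:**
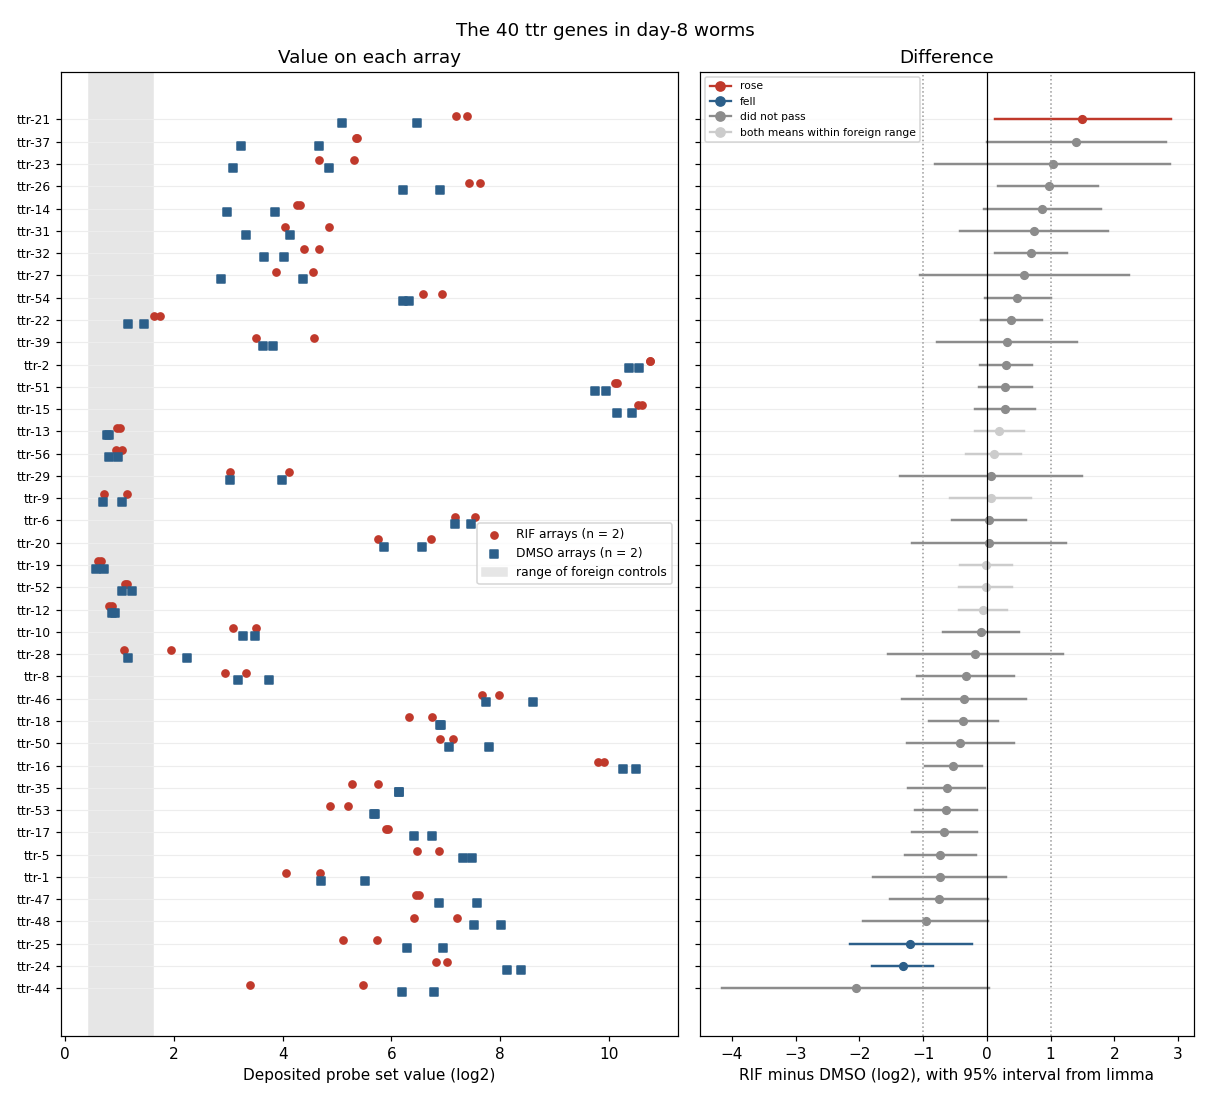
The left panel plots the deposited log2 value of each of the 40 ttr genes on the 2 RIF arrays (circles) and the 2 DMSO arrays (squares), with the foreign range of 0.44 to 1.62 shaded. The right panel gives RIF minus DMSO on the log2 scale with its 95% interval from limma, and dotted lines mark 2-fold. Differences run from 1.5 for ttr-21 down to -2.06 for ttr-44, whose wide interval still reaches 0.03.

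Among the members that were higher with RIF, ttr-21 had 7.39 and 7.19 on the RIF arrays and 5.10 and 6.48 on the DMSO arrays. Both RIF arrays lay above both DMSO arrays, and the DMSO arrays lay further from each other than either RIF array from DMSO replicate 2. The log2 difference was 1.5 (2.83-fold, standard error 0.50, adjusted p = 0.565 from limma). The call was lost without RIF replicate 1 (1.40), RIF replicate 2 (1.61) or DMSO replicate 1 (0.81), and with the methods' t-test.

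A similar picture was seen for ttr-37, with 5.35 and 5.36 under RIF and 3.24 and 4.66 under DMSO. Its RIF arrays were nearly equal and its DMSO arrays were 1.42 apart. The log2 difference of 1.40 (2.65-fold, standard error 0.51, adjusted p = 0.592 from limma) did not pass. It lay close to the threshold, at an unadjusted p of 0.0505 in limma, and passed under 8 of 15 alternatives. Among the 8 were ribosomal centring (1.25) and quantile normalization (1.46), while most left the value at 1.40 and moved only its p. It did not pass with the methods' t-test (unadjusted p = 0.186). The value was 0.69 without DMSO replicate 1 and 2.11 without DMSO replicate 2. Leaving out the array of a group that lies nearer the other group can only widen the difference.

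For ttr-26 the RIF arrays read 7.64 and 7.42 and the DMSO arrays 6.22 and 6.90. Both RIF arrays lay above both DMSO arrays, and the log2 difference of 0.97 (1.96-fold, standard error 0.29, adjusted p = 0.534 from limma) stopped just short of 2-fold. It passed with quantile normalization (1.03), and was 1.31 without DMSO replicate 2, the DMSO array nearer the RIF arrays.

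The groups were also apart in ttr-32, with 4.67 and 4.40 under RIF and 3.66 and 4.02 under DMSO. Its log2 difference was 0.69 (standard error 0.21). For ttr-14 the RIF arrays gave 4.26 and 4.32, against 3.86 and 2.98 on the DMSO arrays. Of the 8 genes higher by 1.5-fold or more, it was the only one with DMSO replicate 2 below DMSO replicate 1. Its log2 difference of 0.87 (standard error 0.34) did not pass. The value was 1.31 without DMSO replicate 1, the DMSO array nearer the RIF arrays.

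In 3 further genes with a difference of 1.5-fold or more the groups overlapped. They were ttr-23, with 5.32 and 4.67 under RIF against 3.08 and 4.85 under DMSO (log2 difference 1.03, standard error 0.67), ttr-31, with 4.05 and 4.86 against 3.32 and 4.13 (0.74, standard error 0.42), and ttr-27, with 4.55 and 3.87 against 2.86 and 4.38 (0.59, standard error 0.60). None of them passed. In each, the higher DMSO array lay above the lower RIF array. DMSO replicate 2 was the higher DMSO array in ttr-23 and ttr-27, so leaving it out could only widen their differences (1.91 and 1.35). Without DMSO replicate 1, ttr-27 turned to -0.17.

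On the lower side, ttr-24 had the smallest standard error of the 3 members that passed. Its values were 7.03 and 6.82 with RIF and 8.38 and 8.13 with DMSO. Both RIF arrays lay below both DMSO arrays, and the arrays of a group differed by 0.21 with RIF and 0.24 with DMSO. The log2 difference was -1.32 (2.50-fold, standard error 0.18, unadjusted p = 0.00152 and adjusted p = 0.325 from limma). This probe set has the ending _s_at, which marks probes shared with other transcripts. A second probe set of ttr-24 without that ending read 6.71 and 6.33 with RIF and 7.82 and 7.46 with DMSO, and fell as well (log2 difference -1.12, standard error 0.23). The call of ttr-24 was kept with each array left out, with values of -1.45 to -1.20, and with the methods' t-test.

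ttr-25 had 5.74 and 5.11 with RIF and 6.95 and 6.29 with DMSO. It fell by 1.20 on the log2 scale (2.29-fold, standard error 0.35, adjusted p = 0.533 from limma). The groups were apart, with 0.55 between the nearest arrays. The call was lost without RIF replicate 2 (-0.88) or DMSO replicate 1 (-0.87), and with the methods' t-test.

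The largest log2 difference of the family was that of ttr-44, with 5.47 and 3.40 on the RIF arrays and 6.79 and 6.20 on the DMSO arrays. Both RIF arrays lay below both DMSO arrays, while the RIF arrays were 2.07 from each other. The value of -2.06 (4.18-fold, standard error 0.76, adjusted p = 0.596 from limma) did not pass. It passed under 6 of 14 alternatives, among them median (-2.12) and ribosomal (-2.22) centring. Others of the 6 left the value at -2.06 and moved only its p. It did not pass with the methods' t-test (unadjusted p = 0.195). ttr-44 had -3.10 without RIF replicate 1, the RIF array nearer the DMSO arrays, and -1.03 without RIF replicate 2. Its probe set also has an ending for shared probes.

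Of the members that were lower, ttr-48 and ttr-47 came next in size. For ttr-48 the arrays read 7.20 and 6.41 with RIF and 8.02 and 7.52 with DMSO (log2 difference -0.96, standard error 0.35). ttr-47 read 6.51 and 6.45 with RIF and 7.58 and 6.88 with DMSO (-0.75, standard error 0.28). In both genes the groups were apart, and neither passed. ttr-48 passed with median (-1.02) or ribosomal centring (-1.12), and was -1.36 without RIF replicate 1. ttr-47 was -1.10 without DMSO replicate 2. In both genes the array left out was the one nearer the other group.

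At less than 2-fold, 5 members that were lower reached an unadjusted p under 0.05 in limma. ttr-5 read 6.88 and 6.48 with RIF and 7.49 and 7.32 with DMSO (log2 difference -0.73, standard error 0.20). ttr-17 read 5.90 and 5.93 with RIF and 6.41 and 6.75 with DMSO (-0.67, standard error 0.18). Both belong to these 5, with groups apart. So do ttr-53 (-0.64, standard error 0.18), ttr-35 (-0.63, standard error 0.22) and ttr-16, with 9.91 and 9.80 with RIF and 10.50 and 10.27 with DMSO (-0.53, standard error 0.16). In ttr-1, with 4.68 and 4.07 with RIF and 5.52 and 4.71 with DMSO (-0.74, standard error 0.38), the nearest arrays of the groups were 0.03 apart.

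The probe sets of ttr-2, ttr-15, ttr-16 and ttr-51 are among the brightest of the family. Of these, ttr-16 was lower with RIF (-0.53), as given above. ttr-2 read 10.76 and 10.76 with RIF and 10.38 and 10.55 with DMSO (log2 difference 0.30, 95% interval -0.11 to 0.71). ttr-15 read 10.62 and 10.53 with RIF and 10.43 and 10.15 with DMSO (0.28, interval -0.19 to 0.75). ttr-51 read 10.12 and 10.15 with RIF and 9.95 and 9.75 with DMSO (0.29, interval -0.13 to 0.71). The 3 intervals leave out a 2-fold change in either direction, and the groups were apart in each. The probe sets of ttr-15 and ttr-51 have an ending for shared probes, so their values may include other transcripts. The brightness of a probe set is not a measure by which 1 gene can be set against another. For ttr-46 the groups overlapped, with 7.98 and 7.66 with RIF and 8.61 and 7.74 with DMSO (-0.36, interval -1.33 to 0.61). For ttr-6 they overlapped as well, with 7.18 and 7.53 with RIF and 7.47 and 7.18 with DMSO (0.03, interval -0.54 to 0.61, which also leaves out 2-fold).

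The 17 members left had log2 differences between -0.64 and 0.48. Genes past the threshold and the largest differences had been named first, so none of the 17 could pass. The groups were apart and higher in 3 of them and apart and lower in 3, against 22.9% and 16% of all genes, and overlapping in 11. The lowest of these values were those of ttr-53 and ttr-35.

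Of the 40 members, 6 gave no sign of a transcript above the foreign range in either group. These were ttr-9, ttr-12, ttr-13, ttr-19, ttr-52 and ttr-56. For ttr-52, the bridging protein of corpse engulfment, the RIF arrays read 1.10 and 1.13 and the DMSO arrays 1.23 and 1.05. The groups overlapped, and the log2 difference of -0.02 (95% interval -0.43 to 0.39) was measured within background. Whether ttr-52 was made at a level below this limit cannot be seen on these arrays.

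Of the genes that act with ttr-52, ced-1, ced-7, nrf-5 and psr-1 were measured above the foreign range. CED-1 is the receptor on the engulfing cell, and ced-1 read 3.50 and 2.81 with RIF and 2.56 and 2.73 with DMSO (log2 difference 0.51, standard error 0.28). CED-7 is an ABC transporter needed on both cells, and ced-7 read 4.35 and 4.65 with RIF and 5.13 and 4.87 with DMSO (-0.50, standard error 0.19). NRF-5 is a secreted lipid-binding protein that acts in the same branch, and nrf-5 read 6.60 and 6.72 with RIF and 6.80 and 6.28 with DMSO (0.12, standard error 0.23). None of these 3 passed. The groups were apart in ced-1, higher with RIF, and in ced-7, lower with RIF, and overlapped in nrf-5. The phosphatidylserine-binding receptor gene psr-1 read 5.03 and 5.06 with RIF and 5.62 and 5.25 with DMSO (-0.38, standard error 0.19), with groups apart, and did not pass. Of 28 engulfment genes listed 27 were measured, 2 of them (src-1 and ced-8) within the foreign range, and none of the other 25 rose or fell. Unadjusted p was under 0.05 in limma for 2 higher and 2 lower ones, against 8.85% of all genes and 14.6% of those above the foreign range, and over the 27 the median log2 difference was 0.09. Of the 4 genes of the core cell death pathway (egl-1, ced-9, ced-4 and ced-3), none passed either.

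**Figure D2:**
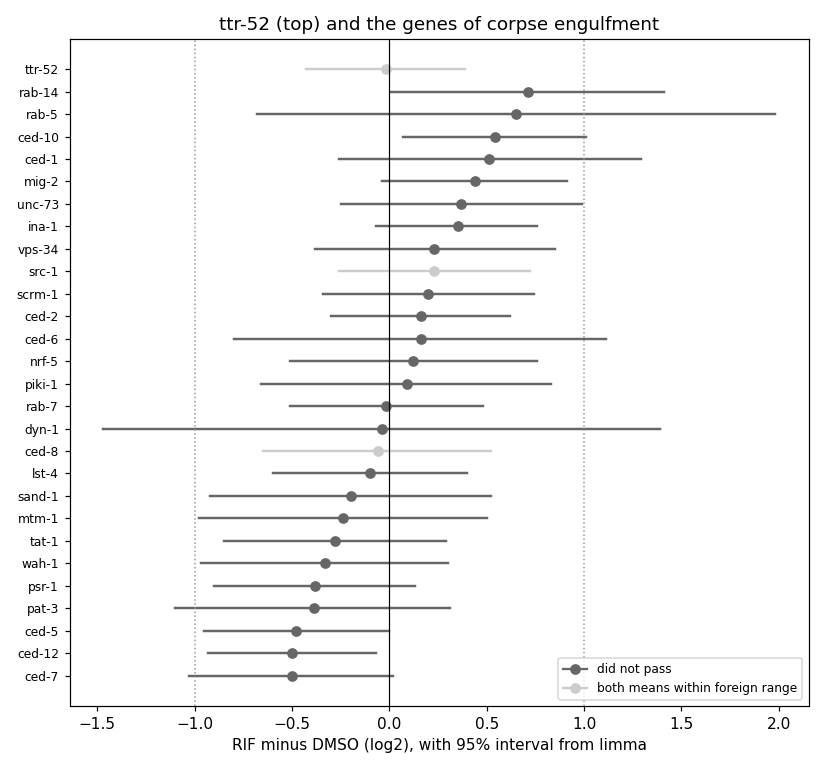
RIF minus DMSO on the log2 scale is plotted for ttr-52, in the top row, and for the 27 measured genes of corpse engulfment, with 95% intervals from limma and dotted lines at 2-fold. No gene passed, and values run from 0.71 for rab-14 to -0.50 for ced-7 and ced-12. Light grey marks genes with both group means within the foreign range.

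Several ttr genes lie next to each other in the genome. In the RefSeq annotation of WBcel235, 16 pairs of ttr genes are consecutive protein-coding genes, and both genes were measured singly in 8 pairs made of 14 members. The log2 differences had the same sign in 2 pairs and opposite signs in 6. This count depended on single arrays, because the signs of ttr-27, ttr-28 and ttr-29 turned: with the same sign were 3 pairs without RIF replicate 1 and 4 pairs without RIF replicate 2, DMSO replicate 1 or DMSO replicate 2. The widest contrast was within the run ttr-24, ttr-25 and ttr-26, where ttr-24 and ttr-25 fell (-1.32 and -1.20) and ttr-26 had a log2 difference of 0.97. The 95% intervals of ttr-25 (-2.15 to -0.24) and ttr-26 (0.18 to 1.75) do not meet. The difference between neighbours was not tested.

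A pair with the same sign was ttr-16 and ttr-17 (-0.53 and -0.67). Opposite signs were found for ttr-54 (0.48, with 6.93 and 6.58 with RIF and 6.22 and 6.33 with DMSO) and ttr-53 (-0.64, with 5.21 and 4.88 with RIF and 5.68 and 5.70 with DMSO). The groups were apart in both of these genes, in opposite directions. ttr-2 (0.30) and ttr-1 (-0.74) also differed in sign with groups apart in each. In ttr-32 (0.69) and ttr-8 (-0.33), the groups of ttr-8 overlapped. In the run ttr-27, ttr-28 and ttr-29 the groups overlapped in each gene, with log2 differences of 0.59, -0.18 and 0.06.

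**Figure D3:**
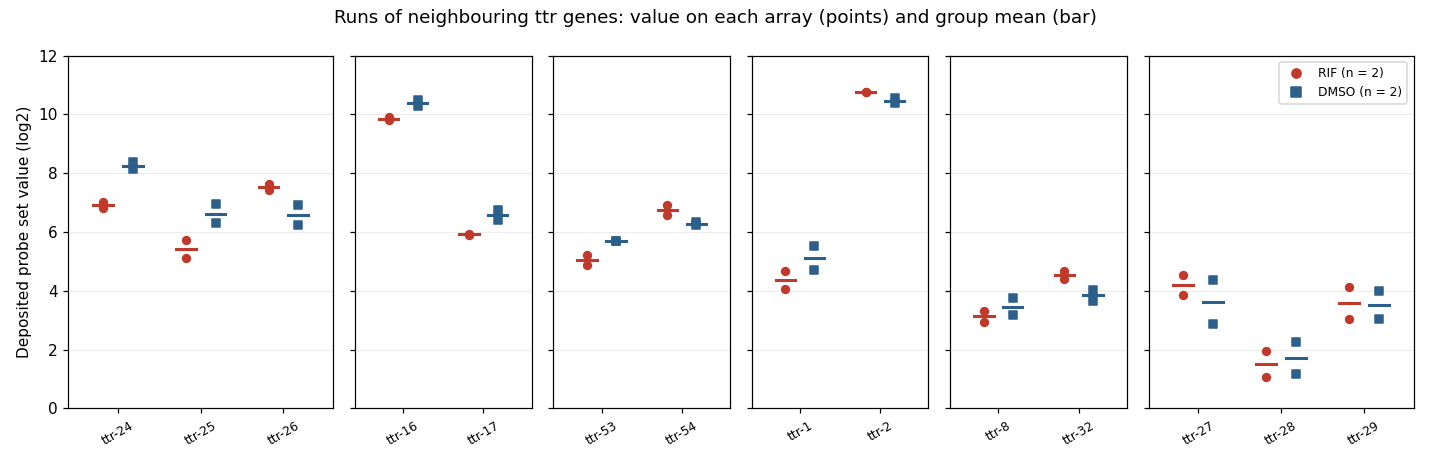
Deposited log2 values of 6 runs of neighbouring ttr genes, with RIF arrays as circles left of DMSO arrays as squares and a bar at each group mean. In the first panel both RIF arrays lie below the DMSO arrays for ttr-24 and ttr-25 and above them for ttr-26. In the last panel the groups overlap in all 3 genes.

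In several members the arrays of the same treatment lay far from each other. The DMSO arrays were 1 log2 unit or more apart in 5 members (ttr-21, ttr-23, ttr-27, ttr-28 and ttr-37), and DMSO replicate 1 was the lower array in all 5. Over all genes above the foreign range, 11.5% had such a gap. The RIF arrays were as far apart in 3 members (ttr-29, ttr-39 and ttr-44), with RIF replicate 2 the lower array each time, against 5.70% of all genes above the range. DMSO replicate 2 had the lower 5′ minus 3′ value (-2.16), and the part of RNA quality in these gaps was not tested.

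With each array left out in turn, the direction was kept in 17 of the 18 members that differed by 1.5-fold or more, the exception being ttr-27. Where the groups were apart, leaving out a single array cannot turn the direction. Only ttr-23, ttr-27 and ttr-31, whose groups overlapped, could have turned, so the count says little of stability. The size depended on the array for several of the 18 members. For ttr-21 it ran from 0.81 to 2.19, for ttr-37 from 0.69 to 2.11 and for ttr-23 from 0.14 to 1.91, in each case with DMSO replicate 1 left out at the low end and DMSO replicate 2 left out at the high end. For ttr-24, in contrast, it ran from -1.45 to -1.20.

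**Figure D4:**
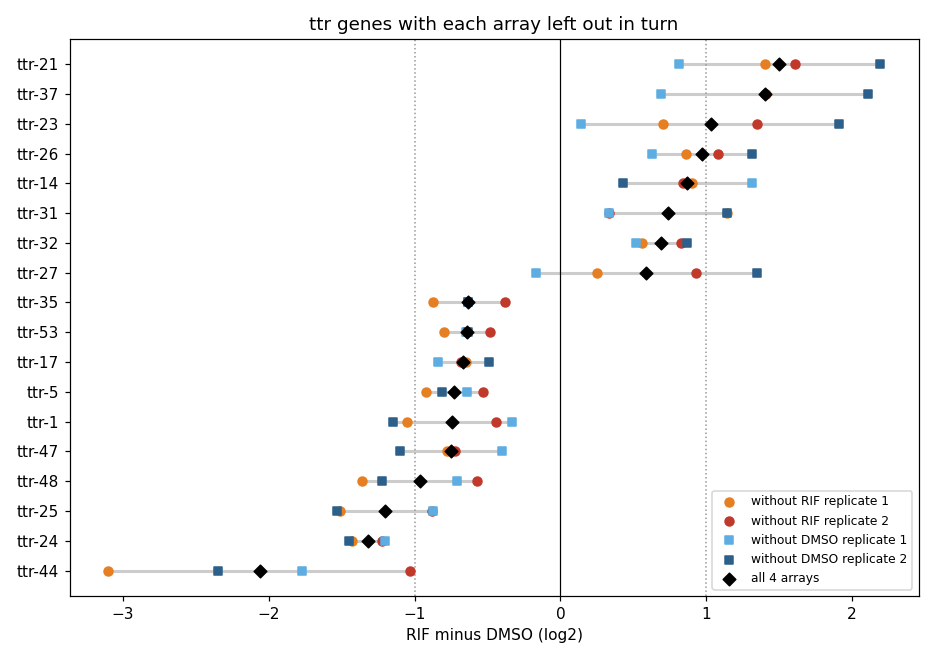
RIF minus DMSO on the log2 scale for the 18 ttr genes that differed by 1.5-fold or more, with all 4 arrays (diamonds) and with each RIF array (circles) or DMSO array (squares) left out. The values of ttr-24 stay between -1.45 and -1.20, while those of ttr-44 span -3.10 to -1.03 and those of ttr-27 cross 0.

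A further 3 probe sets name several ttr genes each and were not assigned to a gene. The brightest of them read 6.03 and 6.88 with RIF and 5.33 and 6.53 with DMSO (log2 difference 0.53, standard error 0.53). The next read 5.76 and 5.37 with RIF and 5.39 and 5.60 with DMSO (0.07, standard error 0.21). The last lay within the foreign range, at 1.15 and 0.78 with RIF and 1.21 and 0.82 with DMSO (-0.05, standard error 0.23). In each of the 3 the groups overlapped. RefSeq lists 59 ttr genes, of which 40 were measured singly and 6 on these shared probe sets, and the other 13 were not analysed here.

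Markers of the tissues of a whole worm were read on the same arrays. Of 12 body wall muscle markers, 5 fell and none rose, and the median log2 difference was -0.45. Over all genes 1.55% fell and 1.27% rose (2.7% and 2.22% of those above the foreign range). The other 7 muscle markers did not pass, 2 of them within the foreign range. The groups were apart and lower in 8 of the 12 and apart and higher in none. Of all genes 16% were apart and lower (21.6% of those above the foreign range). Those that fell were unc-27 (-2.28), unc-15 (-1.93), unc-54 (-1.87), unc-52 (-1.32) and myo-3 (-1.20), which encode proteins of the contractile filaments and, for unc-52, of the basement membrane. All of these but unc-27 were read on probe sets with an ending for shared probes. The RIF mean of myo-3 (1.28) lay within the foreign range, which limits the size of its fall. The mean over the list was 3.87 and 3.52 with RIF and 4.47 and 4.53 with DMSO. Of 11 markers of hypodermis and seam, the adult cuticle collagen gene col-19 fell (-3.77), and the median was -0.29, with list means of 3.07 and 2.94 with RIF and 3.54 and 3.64 with DMSO. For neurons the groups were apart and higher in 11 of 14 markers (22.9% of all genes) and apart and lower in none. Of the 14, 2 lay within the foreign range. The median was 0.35, with none past the threshold and list means of 4.41 and 4.17 with RIF and 3.99 and 3.80 with DMSO.

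Of 13 intestinal markers gtl-1 rose (1.05) and vha-6 fell (-1.23), with a median of 0.19. The probe sets of gtl-1 and vha-6 have an ending for shared probes. None of the markers for pharynx (12), glia (8), coelomocytes (3), germ line (12), oocytes and eggshell (13) or sperm (10) rose or fell, and their medians were 0.03, -0.04, -0.15, -0.43, -0.38 and -0.22. Of these, 3 pharynx, 5 glia, 1 coelomocyte and 5 sperm markers lay within the foreign range and have no measured change. All 12 germ line markers were below 0, where 7577 of all 17118 genes were (4965 of the 9836 above the foreign range). The groups were apart and lower in 7 of these 12 and in 8 of the 13 oocyte and eggshell markers. All of these markers lay above the foreign range, where 21.6% of genes were apart and lower (16% of all genes). They were apart and higher in none of the germ line markers and in 1 of the oocyte and eggshell markers. Of 10 genes of dopamine neurons, 5 of them within the foreign range, cat-4, which makes a cofactor for the synthesis of dopamine and serotonin, rose (1.29). A separate list held 2 measured genes that the files give by sequence name, with no role. R09H10.3 read 5.59 and 5.32 with RIF and 7.02 and 6.33 with DMSO and fell (-1.22, standard error 0.29), and ZK697.8 lay within the foreign range. The part of any tissue in the differences of the ttr genes was not tested.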

How the data were processed

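RNA of 2 RIF and 2 DMSO cultures was measured on Affymetrix arrays. The authors deposited log2 values per probe set. RMA and Affymetrix Expression Console are named in the submitters' processing notes, whereas GeneSpring GX is given in the methods. Spike-ins held 20-fold apart differed by 4.50 to 5.06, nearer to log2 of 20 (4.32) than to its natural log (3.00). Of 22625 probe sets, 77 controls were left out. The other 22548 were fitted as deposited by lmFit and eBayes of limma 3.58.1 under R 4.3.3 (RIF minus DMSO, two-sided, 2.11 prior degrees of freedom), with Benjamini-Hochberg adjustment over all of them. Genes were named through GEO's platform annotation, in which 20766 probe sets name 1 gene, 887 several and 895 none. RefSeq held the gene ID of 20701 single-gene probe sets, including all 40 members under the same symbol.

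Nothing in the labels says more of the replicates than that they are biological, so p-values measure the spread between these arrays. The number of arrays limits the precision: an exact permutation test of 2 arrays against 2 cannot go below 0.333. Members and lists were chosen with earlier results of these data known. Named were the ttr genes past the threshold, the 8 largest differences in each direction, the 8 with the highest mean, ttr-52, and list members past the threshold with 4 partners of ttr-52. Other genes named came after their values were seen. The procedure was tested on simulated data. Alternatives were other tests, a replicate block, each array left out, other normalizations, filters, thresholds and probe set choices. Sequences were not analysed here.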

Additional observations from a re-analysis of the deposited data

How the results depend on the processing

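The median log2 difference of the ttr genes lay between -0.16, with RIF replicate 1 left out, and 0.10, with DMSO replicate 2 left out, over the alternatives run, and was -0.15 with ribosomal centring, which moved the median of all probe sets to -0.13 from 0.03. The count of 1 gene higher became 0 with the methods' t-test, with Welch's version of it and with an adjusted p under 0.05. It became 2 with an intensity trend and robust prior, the replicate block, ribosomal centring, only probe sets above the foreign controls, no shared-probe endings, the mean over probe sets, or genes in place of probe sets. It was 3 with quantile normalization, with a 1.5-fold threshold and with no fold threshold, and 0 to 5 with each array left out. The count of 2 genes lower became 1 with the methods' t-test and Welch's version, 0 with an adjusted p under 0.05, 4 with median or ribosomal centring, 6 at 1.5-fold and 7 with no fold threshold, and 1 to 4 with each array left out. The cause was not tested. The block gave 2 higher and 3 lower genes, adding ttr-37 and ttr-44, and same-numbered arrays deviated together with r = 0.103 over all probe sets, so the numbers were not taken to pair the arrays. The direction turned for ttr-6 without RIF replicate 2 (-0.14), without DMSO replicate 2 (-0.11) and with median (-0.03) or ribosomal centring (-0.13), and without DMSO replicate 1 for ttr-27 (-0.17), ttr-46 (0.08) and ttr-52 (0.06). With each array left out, the range was -0.14 to 0.21 for ttr-6, -0.17 to 1.35 for ttr-27, -0.79 to 0.08 for ttr-46 and -0.11 to 0.06 for ttr-52. Of 364 values of the 23 named ttr genes under the alternatives, 323 kept direction and side of the threshold. Several alternatives, such as other tests, leave the log2 value as it is, so the direction could not turn there. Most of the 23 genes had not passed to begin with, and for them a kept side means that they still did not pass. Of the genes that passed, ttr-24 kept its call in every alternative fit, while ttr-21 and ttr-25 each lost it in some. In 6 of the 40 genes both group means lay within the foreign range. Signal near the foreign controls also limits ttr-22 (means 1.68 with RIF and 1.30 with DMSO) and ttr-28 (1.52 and 1.70), which lay just above that range in 1 group.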
